A study of Mus musculus with 8 samples.

Results

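Interferon-stimulated genes were examined in B cells that were on their way into the germinal center, the site in lymphoid tissue where B cells mutate and select their antigen receptors. The members were 51 genes taken by name from a list of well-known interferon-stimulated genes, out of 24259 gene symbols with read counts in the series. All 51 were present in the count table, and 49 of them had enough reads to enter the test, among 12744 genes tested in all. The 2 members that did not were Iigp1 and Phf11d.

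The series comprised 8 libraries of NP+IgDlowB220+ pre-GC B cells, which bind the hapten NP and have low surface IgD, from lymph nodes of C57BL/6 mice at day 3 after immunization. The question was how the state of these B cells depends on the dose of Bcl6 in the T cells that help them. In the HET group (4 libraries) help came from CD4-CrexBcl6fl/+ OT-II T cells, which carry 1 floxed allele of Bcl6 and recognise ovalbumin. In the WT group (4 libraries) it came from CD4-Cre OT-II T cells. Recipients in both groups lacked SAP, an adaptor that T cells need to help germinal center B cells. They received NP coupled to ovalbumin (NP-OVA) together with LPS, a bacterial product that itself induces interferon, in alum. The Cre recombinase was driven in T cells, so the sequenced B cells of both groups were host cells with intact Bcl6 and no targeted gene could be checked in them. According to the methods, recipients of a group were pooled and the 4 libraries of a group, about 200 sorted cells each, came from that pool. The p-values below therefore reflect how sorts from a pool and their libraries vary, and an effect of the T cells cannot be told apart from one of the pool. Age and sex of the mice were not given in the sources used here.

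Interferons are secreted proteins that warn cells of infection. Type I interferons bind the receptor pair IFNAR1 and IFNAR2, and interferon gamma binds IFNGR1 and IFNGR2. Both receptors signal through Janus kinases to STAT proteins. After type I interferon, STAT2 and IRF9 take part in a complex that binds the interferon-stimulated response element (ISRE), while interferon gamma acts mainly through the gamma-activated site (GAS). The genes that are switched on encode sensors of foreign nucleic acid, proteins that degrade or bind viral RNA, factors that block virus entry or release, and GTPases that attack compartments holding microbes. B cells keep many of these genes at a basal level and raise them in response to interferon or to microbial products.

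Total counts ranged from 6652386 to 12559189 per library, at which 3 counts were worth 0.239 to 0.451 CPM (counts per 1000000 counts). B cell markers were abundant in every library, with a summed level of 17534 to 26772 CPM over 10 markers in HET and 19802 to 21009 CPM in WT. Of these 10 markers 1 had a higher mean in HET, Ighm, which was at 15362 CPM in HET replicate 1, and 9 had a lower one. For Cd79b, Ms4a1, Ptprc, Ebf1 and Cd22, named after their values were seen, every HET library lay below every WT library, as for 2.62% of all genes tested. Of these, Ptprc is not confined to B cells. Transcripts of other cells were also detected. The T cell list summed to 372 to 704 CPM in HET and 205 to 536 CPM in WT, and 14 of its 15 tested genes had a higher mean in HET. Cd4 was at 0 to 0.758 CPM in all 8 libraries, while Cd8a and Cd8b1 were detected in each. NK cell markers summed to 63.7 to 236 CPM in HET and 44.5 to 125 CPM in WT, with 8 of 8 tested genes higher in HET. Dendritic cell markers summed to 656 to 917 CPM and 558 to 720 CPM, and myeloid markers to 175 to 400 CPM and 122 to 499 CPM, respectively. Most of the dendritic sum in every library came from Spib (343 to 475 CPM) and Tcf4 (139 to 221 CPM), which are not confined to dendritic cells. Ly6c2, at 58.4 to 339 CPM, was the largest myeloid marker in every library except WT replicate 2. Lyz2, a macrophage gene, stood at 399 CPM in WT replicate 2 against 0 to 28.5 CPM elsewhere. Antibody-secreting cell markers reached 2100 CPM in HET replicate 1 against 241 to 550 CPM elsewhere. None of these marker genes passed the adjusted test, and their part in the results on interferon-stimulated genes was not tested. In bulk libraries, fewer cells of a type and less RNA per cell cannot be told apart.

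To see what the members share in their regulatory sequence, the 250 bases before the annotated start site were searched for the ISRE core, GAAANNGAA or its other strand TTCNNTTTC, and for the GAS core TTCNNNGAA, which reads the same on both strands. RefSeq promoters (GRCm38.p6) were at hand for 42 of the 51 members. The ISRE core occurred in 21 of these 42 members (50%), against 674 of 8927 tested genes with a promoter (7.55%) and 7.13% of all 32851 promoters. The GAS core occurred in 9 of 42 members (21.4%), against 7.06% of tested genes and 7.02% of all promoters. A match is a run of letters and not a measured binding site. The windows of 5 members are shown because their genes recur in the results below and they show how the core is arranged, from 1 copy to overlapping runs. They are Isg15 (chr4:156200819-156201068, minus strand), Ifit1 (chr19:34640639-34640888, plus strand), Ifit3 (chr19:34583279-34583528, plus strand), Bst2 (chr8:71537473-71537722, minus strand) and Igtp (chr11:58199306-58199555, plus strand). Each is written 5′ to 3′ on the strand of the gene and ends at the base before the start site. Capitals mark the ISRE core, and overlapping cores run together.
Isg15: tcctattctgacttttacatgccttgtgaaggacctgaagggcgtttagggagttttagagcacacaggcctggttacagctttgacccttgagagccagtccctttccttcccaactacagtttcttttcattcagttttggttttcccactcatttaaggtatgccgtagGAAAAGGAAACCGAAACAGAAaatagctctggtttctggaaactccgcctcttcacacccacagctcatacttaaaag
Ifit1: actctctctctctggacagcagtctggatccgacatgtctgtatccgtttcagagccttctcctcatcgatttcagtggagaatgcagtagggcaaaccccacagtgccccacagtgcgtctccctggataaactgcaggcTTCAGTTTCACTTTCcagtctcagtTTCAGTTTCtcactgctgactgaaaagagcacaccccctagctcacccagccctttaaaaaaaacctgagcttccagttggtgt
Ifit3: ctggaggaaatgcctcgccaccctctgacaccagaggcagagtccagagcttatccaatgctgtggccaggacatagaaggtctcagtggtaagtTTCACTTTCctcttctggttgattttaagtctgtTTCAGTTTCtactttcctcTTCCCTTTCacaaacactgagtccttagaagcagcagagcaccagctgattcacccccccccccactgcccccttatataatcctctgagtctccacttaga
Bst2: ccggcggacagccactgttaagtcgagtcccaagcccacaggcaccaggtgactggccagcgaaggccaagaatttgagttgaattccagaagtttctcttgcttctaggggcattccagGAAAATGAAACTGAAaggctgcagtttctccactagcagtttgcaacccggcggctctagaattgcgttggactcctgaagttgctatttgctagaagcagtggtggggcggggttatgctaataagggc
Igtp: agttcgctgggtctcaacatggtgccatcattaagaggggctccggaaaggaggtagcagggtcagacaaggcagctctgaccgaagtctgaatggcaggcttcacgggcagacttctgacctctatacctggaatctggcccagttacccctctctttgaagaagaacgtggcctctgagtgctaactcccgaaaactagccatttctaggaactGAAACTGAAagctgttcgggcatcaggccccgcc

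In Isg15 the cores began 78, 72 and 66 bases before the start site and overlapped in 1 run. Ifit1 had cores at 109, 103 and 84 bases and Ifit3 at 155, 121 and 102 bases before the start, both read on the other strand. Bst2 had an overlapping pair at 130 and 124 bases, and Igtp had 1 core at 34 bases. A GAS core was also present in the Bst2 and Igtp windows. The 21 members with an ISRE core came from every role group except ADP-ribosylation, where Dtx3l was the member with a promoter in the table. Of these, 11 had a higher mean in HET than in WT, with a median log2 fold change of 0.00091. Of the 20 tested members with a promoter but no core, 9 were higher in HET, with a median of -0.026.

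**Figure D1:**
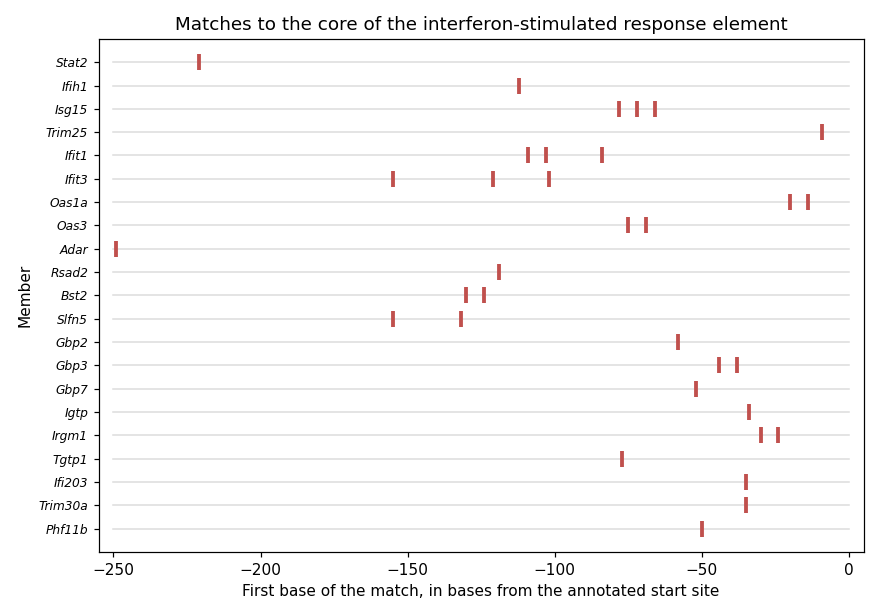
Start of each match to the ISRE core in the 250 bases before the annotated start site of 21 members. The horizontal axis is the distance from the start site in bases, each row is a member and each mark is the first base of a match on either strand. Isg15, Ifit1 and Ifit3 have 3 marks each, and Igtp has its mark at -34.

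The members differed widely in level. Measured per transcript length as TPM (transcripts per 1000000 transcripts, averaged over all 8 libraries), they ran from 0.122 for Phf11d to 2107 for Ly6e. The median of the 51 members was 13.1 TPM, against 5.96 TPM for all tested genes, and 27 members had at least 10 TPM. Ly6e, a membrane-anchored protein that interferes with virus entry, was at 2031 ± 206 TPM (SD, n = 4) in HET and 2184 ± 186 TPM (SD, n = 4) in WT. Shisa5, a p53 and interferon target in the endoplasmic reticulum, was at 819 ± 109 TPM (SD, n = 4) and 867 ± 31.4 TPM (SD, n = 4). These 2 genes held 72.7% of the summed member TPM. Slfn2, a Schlafen protein that preserves lymphocyte quiescence, came next with 187 ± 8.39 TPM (SD, n = 4) in HET and 207 ± 23.3 TPM (SD, n = 4) in WT. Bst2, Irf9, Irf7 and Irf1 followed between 69.4 and 95.3 TPM, and their order is not separable given SDs of 6.88 to 44.3 TPM within a group. Genes usually regarded as hallmarks of an interferon response lay on both sides of the median of all tested genes. Isg15 was above it, at 11.4 ± 2.65 TPM (SD, n = 4) in HET and 9.10 ± 6.15 TPM (SD, n = 4) in WT. Ifit1, at 3.08 ± 2.41 and 1.38 ± 0.622 TPM (SD, n = 4 each), was below it. So was Rsad2, at 2.05 ± 1.28 and 1.42 ± 1.14 TPM (SD, n = 4 each). The sensor Ifih1 was at 0.456 ± 0.280 TPM (SD, n = 4) in HET and 0.609 ± 0.273 TPM (SD, n = 4) in WT.

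**Figure D2:**
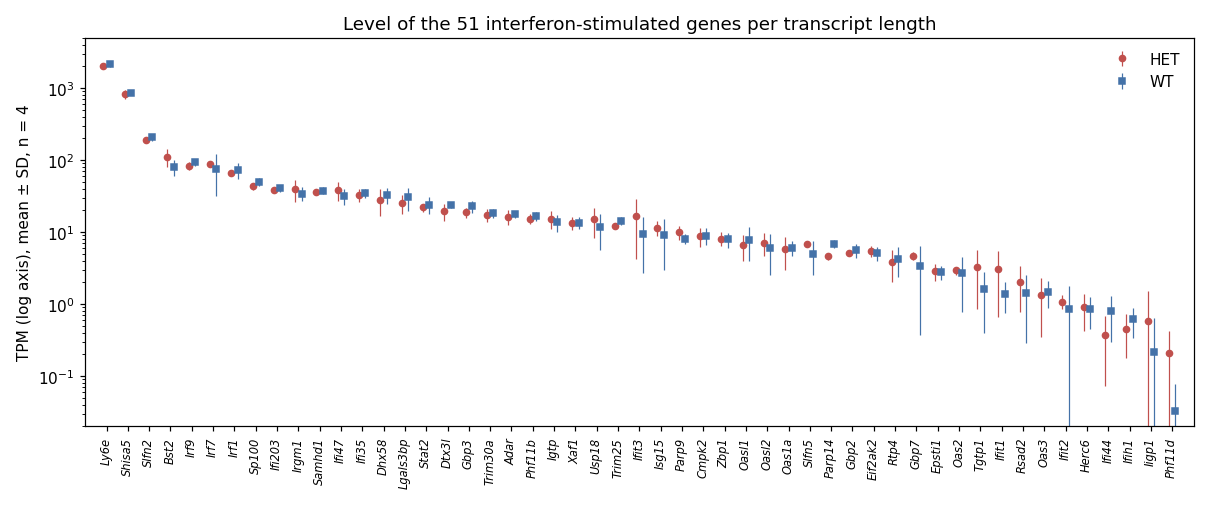
Level of the 51 members per transcript length, in TPM on a log axis, with the mean and SD of 4 libraries in HET (circles) and WT (squares), ordered by the mean of all libraries. Ly6e and Shisa5 lie far above the others, the 2 groups lie close together for most members, and SD bars that would pass below the lower end of the axis are cut there.

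Of the 49 members tested, none differed between B cells helped by HET and by WT T cells after adjustment over all genes tested. The lowest adjusted p among members was 0.587 in edgeR's quasi-likelihood test and 0.241 in DESeq2. Among all 12744 genes, 3 passed the adjusted test in edgeR (0.0235%), and in DESeq2 95 of 13834 genes passed (0.687%), of which 0 were members. At an unadjusted p under 0.05, 1 member was higher in HET (Bst2) and 1 was lower (Parp14), against 3.34% of all genes higher and 3.88% lower. DESeq2 gave 2 members at this limit (3.92%, against 5.65% of all genes in that fit). Without WT replicate 2, the library with the high Lyz2 level, 6 of 49 members were at this limit (12.2%, against 8.33% of all genes in that fit). Cxcl9, an interferon-stimulated gene outside the list named after its values were seen, had 381 counts in that library and 0 in every other. It did not enter the test. The 4 HET and the 4 WT libraries did not overlap for 0 members higher and 1 member lower in HET (Parp14), against 1.99% and 2.62% of all genes. With 1 of 49 members in each case, neither count stood above the background.

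The signs were evenly split. There were 24 members with a higher mean in HET and 25 with a lower one, so that 49% were higher, against 49.9% of all genes tested. Their median log2 fold change was -0.016, and that of all genes was -0.0014. The 95% interval of the fold change lay within a 2-fold change either way for 32 of 49 members and within a 1.5-fold change for 16. For the other members a change of 2-fold was within the interval, so the data do not exclude it. The width followed the level. The 22 members with a mean of at least 50 CPM had a median absolute log2 fold change of 0.091 (0.14 for the 3559 genes of that level) and a median biological coefficient of variation of 0.178 (0.170). In the 27 members under 50 CPM these were 0.21 (0.28 for all such genes) and 0.424 (0.411). There were 9 members with an absolute log2 fold change above 0.5, and Bst2 was the only 1 of them with at least 50 CPM.

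**Figure D3:**
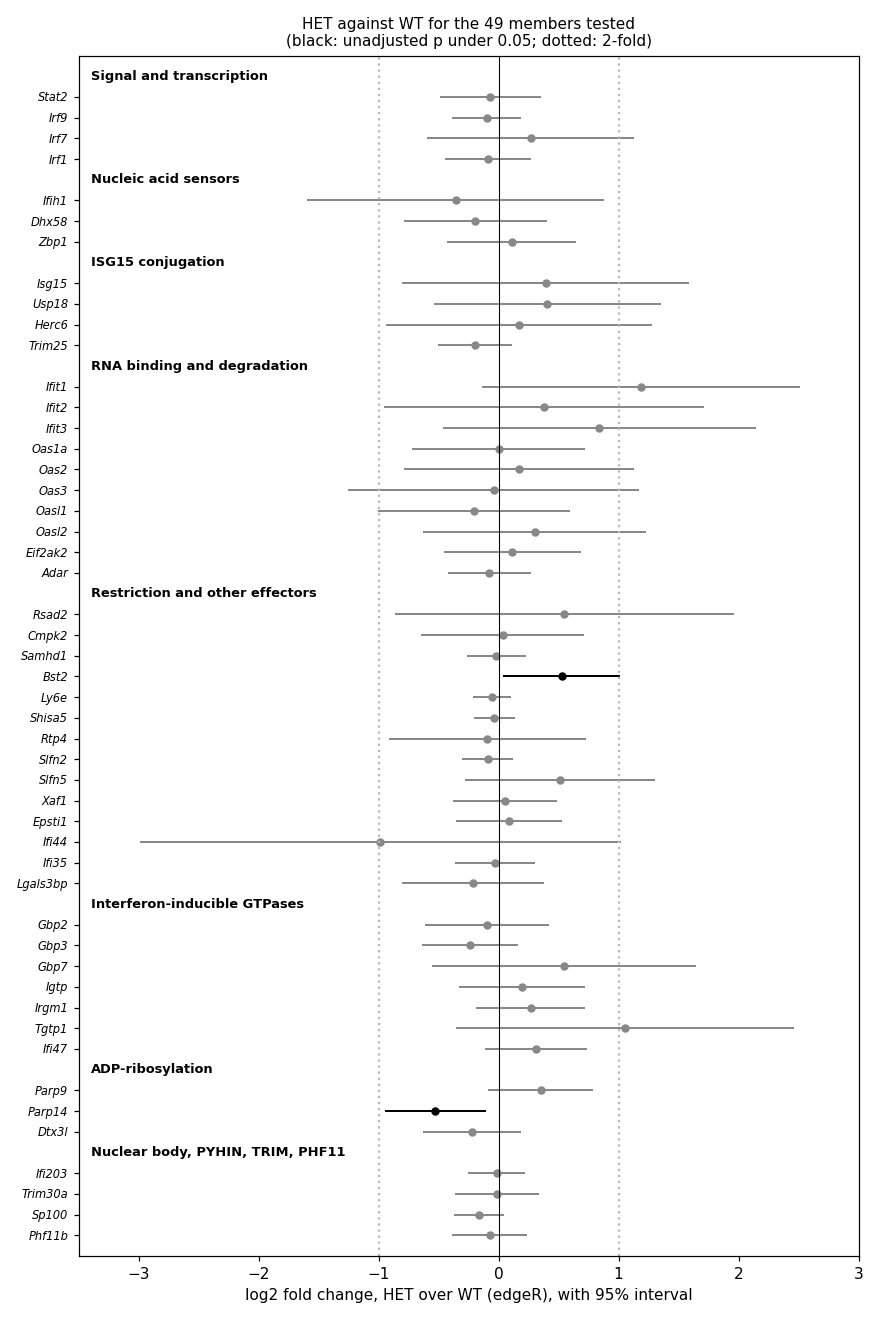
Log2 fold change of HET over WT for the 49 members tested, grouped by role, with the 95% interval from edgeR (4 libraries a group). Points right of 0 are higher in HET, dotted lines mark a 2-fold change, and only the intervals of Bst2 and Parp14, in black, leave out 0.

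The 4 members that carry or shape the interferon signal in the nucleus were split 1 higher to 3 lower in HET (median log2 fold change -0.079). Values per library are given below for replicates 1 to 4 of a group, in CPM. Irf7, the factor that amplifies type I interferon production, was at 76.2, 59.5, 58.6 and 69.0 CPM in HET and at 19.4, 64.2, 40.3 and 95.1 CPM in WT. The HET libraries were close together, while the WT libraries spanned from the lowest to the highest value of all 8. HET over WT gave a log2 fold change of 0.27 (95% interval -0.59 to 1.12, edgeR adjusted p = 0.925), and it was -0.020 without WT replicate 1 and 0.67 without WT replicate 4. Irf9, the DNA-binding part of the ISRE-binding complex, was at 106, 91.6, 120 and 111 CPM in HET and 104, 131, 105 and 119 CPM in WT, which overlap almost fully. Stat2, its signalling partner, was at 82.8, 55.3, 67.7 and 65.1 CPM in HET and 55.9, 55.9, 84.1 and 88.7 CPM in WT. Irf1, a factor induced strongly by interferon gamma, was at 98.4, 116, 103 and 114 CPM in HET and 90.7, 93.7, 122 and 152 CPM in WT, where replicate 4 was highest. On the log2 scale the fold changes were -0.10 for Irf9, -0.069 for Stat2 and -0.089 for Irf1 (edgeR adjusted p from 0.911 to 0.966).

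The nucleic acid sensors comprised Ifih1, Dhx58 and Zbp1, of which 1 was higher and 2 were lower in HET (median log2 fold change -0.20). Ifih1, which encodes the sensor of long double-stranded RNA MDA5, was at 7.40, 1.17, 7.49 and 3.79 CPM in HET and 4.75, 9.96, 3.41 and 7.41 CPM in WT. HET replicate 2, at 9 counts, was the lowest of the 8, and the groups overlapped. HET over WT gave a log2 fold change of -0.36 (SE 0.57, edgeR adjusted p = 0.933), with -0.027 without HET replicate 2 and -0.62 without HET replicate 1.

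ISG15 is a ubiquitin-like protein that is attached to other proteins during infection, and its own gene, the protease Usp18 that removes it, and the ligases Herc6 and Trim25 were measured. In HET 3 of the 4 were higher and 1 was lower (median log2 fold change 0.28), and none passed the test. Isg15 was at 5.06, 6.48, 5.24 and 3.79 CPM in HET and at 1.52, 2.34, 7.19 and 4.70 CPM in WT. WT held both the lowest and the highest library. Usp18, which also dampens type I interferon receptor signalling, was at 37.3, 39.9, 55.4 and 16.8 CPM in HET and at 9.79, 41.2, 22.6 and 39.1 CPM in WT, again with wide overlap. The log2 fold change was 0.39 for Isg15 (95% interval -0.80 to 1.58) and 0.41 for Usp18 (-0.53 to 1.34), with edgeR adjusted p of 0.922 and 0.889. Leaving out any library gave 0.12 (without WT replicate 1) to 0.85 (without WT replicate 3) for Isg15, and 0.12 (without WT replicate 1) to 0.65 (without HET replicate 4) for Usp18.

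Among the 10 RNA-binding and RNA-degrading members, 7 were higher and 3 lower in HET (median log2 fold change 0.14), and none passed. Ifit1, which binds RNA with foreign cap structures, was at 1.93, 7.12, 19.0 and 9.25 CPM in HET and at 1.52, 5.18, 5.43 and 4.18 CPM in WT. HET replicates 2, 3 and 4 lay above all WT values, and HET replicate 1 lay below 3 of them. Its log2 fold change of 1.19 (SE 0.61, 95% interval -0.13 to 2.51, edgeR adjusted p = 0.726) was the largest of the members and was 0.58 without HET replicate 3 and 1.54 without HET replicate 1. Ifit3, of the same gene family, was at 29.9, 16.7, 58.4 and 11.2 CPM in HET and at 7.03, 32.6, 8.33 and 16.9 CPM in WT. The groups overlapped, and HET replicate 3 was the highest library. The log2 fold change of Ifit3 was 0.84 (SE 0.58, edgeR adjusted p = 0.814), with 0.26 without HET replicate 3 and 1.43 without WT replicate 2. In Ifit3 51.2% of 50-base windows also occur in Ifit3b, so reads may have been split between them.

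**Figure D4:**
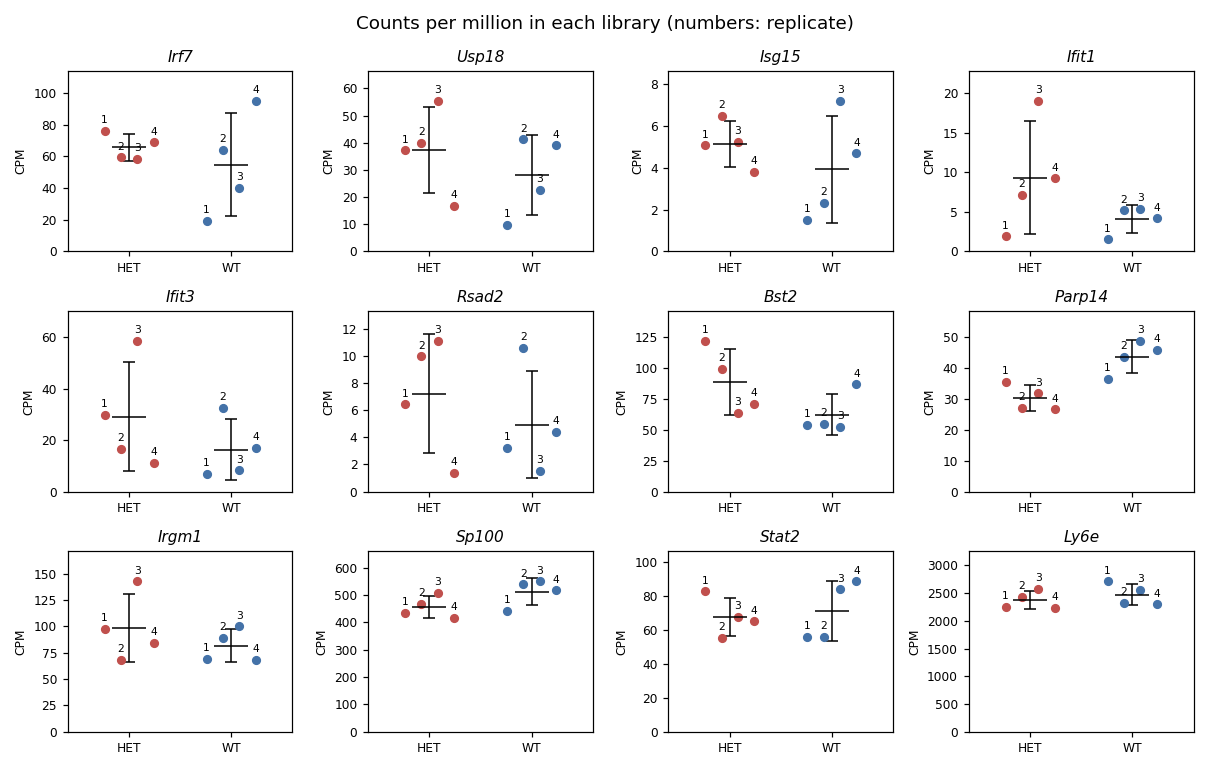
CPM of 12 members in each library, with HET in red and WT in blue and the replicate number above each point. The horizontal line is the group mean and the bars are the SD (n = 4). WT replicate 1 is the lowest point for Irf7, Usp18, Isg15, Ifit1 and Ifit3, HET replicate 3 is the highest for Usp18, Ifit1, Ifit3, Rsad2 and Irgm1, and Parp14 is the panel without overlap between the groups.

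The other members of this role were steadier or as spread around 0. Oas1a, an oligoadenylate synthetase that activates RNase L, was at 39.2, 15.5, 20.7 and 13.6 CPM in HET and 24.9, 15.4, 21.6 and 27.6 CPM in WT. Here the group means were almost equal (log2 fold change 0.00091, SE 0.33, and edgeR adjusted p above 0.99), and the sign changed in 10 alternatives. In Oas1a 57.6% of 50-base windows also occur in Oas1g, so its value is uncertain. Oasl2, a member of the related OASL family, was at 10.6, 12.6, 12.4 and 21.5 CPM in HET and at 12.9, 19.9, 4.16 and 9.19 CPM in WT. Eif2ak2, which encodes the kinase PKR that stops translation, was at 16.8, 20.98, 23.5 and 23.4 CPM in HET and at 18.5, 20.1, 13.9 and 25.5 CPM in WT. Adar, which edits adenosine to inosine in double-stranded RNA, was at 81.4, 89.0, 71.9 and 119 CPM in HET and at 102, 93.0, 103 and 83.0 CPM in WT. In all 3 genes the groups overlapped, with log2 fold changes of 0.30, 0.12 and -0.077 (edgeR adjusted p from 0.923 to 0.958). Adar shares 1365 exonic bases with Chrnb2 on the opposite strand, and the strand setting of the counting was not stated. The remaining members, Ifit2, Oas2, Oas3 and Oasl1, had log2 fold changes from -0.21 to 0.38.

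The 14 restriction factors and other effectors were split 6 higher to 8 lower in HET (median log2 fold change -0.026), and 1 had an unadjusted p under 0.05. This was Bst2 (chromosome 8, 71534255 to 71537456 on GRCm38), which encodes tetherin, a protein that holds budding virus particles on the cell surface. Bst2 was at 121, 99.1, 63.5 and 71.0 CPM in HET and at 54.0, 54.5, 52.2 and 86.6 CPM in WT. All HET libraries were above WT replicates 1 to 3, and WT replicate 4 lay above HET replicates 3 and 4. This gave a log2 fold change of 0.52 (SE 0.22, fold 1.44), and the edgeR adjusted p was 0.627. Without HET replicate 1 it was 0.34, and without WT replicate 4 it was 0.73. The unadjusted p was no longer under 0.05 without HET replicate 1 or 2 or without WT replicate 1, 2 or 3.

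Bst2 is also a surface marker of plasmacytoid dendritic cells. Among the dendritic cell markers, 7 of 10 tested were higher in HET. Siglech, a defining marker of plasmacytoid cells that was singled out after its values were seen, was at 102, 91.8, 13.0 and 23.7 CPM in HET and at 0, 0, 5.93 and 39.0 CPM in WT. The libraries highest in Bst2, namely HET replicates 1 and 2 and WT replicate 4, were also the highest in Siglech. Of the other markers in that list, Ccr9 and Clec9a were also highest in these libraries, and the rest were not. In WT replicate 4 Spib, which is not confined to these cells, was at 343 CPM, the lowest of all 8 libraries. Runx2 was at 10.9 to 27.7 CPM in HET and at 0 to 7.32 CPM in WT, with 4.80 CPM in WT replicate 4. Flt3 was at 15.6 to 26.1 CPM in HET and at 5.80 to 12.3 CPM in WT. For both, named after their values were seen, every HET library lay above every WT library, as for 1.99% of all genes tested. The part of such cells in the Bst2 values was not tested.

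Other effectors were nearly level. Ly6e was at 2256, 2435, 2578 and 2233 CPM in HET and at 2713, 2324, 2553 and 2299 CPM in WT. On the log2 scale the fold change of -0.058 had a 95% interval of -0.21 to 0.094, the narrowest of the members (edgeR adjusted p = 0.908). Samhd1, which lowers the supply of deoxynucleotides, was at 291, 255, 241 and 240 CPM in HET and at 254, 300, 222 and 267 CPM in WT (HET over WT, log2 fold change -0.022, 95% interval -0.26 to 0.22). Slfn2 was at 375, 359, 322 and 355 CPM in HET and at 331, 365, 386 and 423 CPM in WT (HET over WT, log2 fold change -0.093, 95% interval -0.30 to 0.11, edgeR adjusted p = 0.885). For these 3 genes the intervals lay within a 1.5-fold change. Rsad2, which encodes viperin, an enzyme that makes a chain-terminating nucleotide, was at 6.43, 9.97, 11.1 and 1.36 CPM in HET and at 3.23, 10.6, 1.51 and 4.38 CPM in WT. Its values crossed freely between groups (log2 fold change 0.55, SE 0.65, edgeR adjusted p = 0.904), and the fold change was 0.26 without WT replicate 3 and 1.24 without WT replicate 2. The lowest log2 fold change of any member, -0.99 (SE 0.93), was that of Ifi44, named here for that value after it was seen, which had 0 to 47 counts per library.

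Interferon-inducible GTPases act on membranes around microbes. Of 8 members 7 were tested, and 5 were higher and 2 lower in HET (median log2 fold change 0.27), none of them past the test. Irgm1, a regulator of the family, was at 97.4, 68.4, 143 and 84.2 CPM in HET and at 69.3, 89.2, 100 and 68.2 CPM in WT. The difference (log2 fold change 0.27, 95% interval -0.18 to 0.71, edgeR adjusted p = 0.839) was 0.033 without HET replicate 3, the highest library, and 0.41 without HET replicate 2. Igtp, also called Irgm3, was at 33.0, 32.0, 53.0 and 45.8 CPM in HET and at 26.7, 36.7, 30.5 and 49.1 CPM in WT (HET over WT, log2 fold change 0.19, edgeR adjusted p = 0.908). Igtp shares 162 of its 2022 exonic bases with Irgm2 on the same strand, and 11.8% of its 50-base windows occur in other genes. Tgtp1 was at 6.51, 1.68, 13.3 and 5.61 CPM in HET and at 2.57, 6.91, 1.64 and 1.88 CPM in WT. WT replicate 2 and HET replicate 2 crossed over to the other group's range. The log2 fold change of Tgtp1 was 1.05 (SE 0.65, edgeR adjusted p = 0.787), with 0.51 without HET replicate 3 and 1.73 without WT replicate 2. Since 79.4% of its 50-base windows occur in Tgtp2 as well, reads could not be assigned to it with certainty.

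The guanylate-binding proteins, a second GTPase family, showed no common direction. Gbp2 was at 23.8, 22.7, 22.8 and 24.4 CPM in HET and at 29.8, 29.5, 23.7 and 17.0 CPM in WT, so that the WT libraries lay on both sides of a tight HET group. Gbp3 was at 44.1, 47.7, 44.0 and 60.4 CPM in HET and at 43.8, 57.9, 66.8 and 62.5 CPM in WT. The log2 fold changes were -0.096 and -0.24 (edgeR adjusted p = 0.960 and 0.835), and that of Gbp7 was 0.55 (SE 0.50, edgeR adjusted p = 0.867). Iigp1, which was not tested, had 13, 0, 0 and 44 counts in HET and 0, 0, 21 and 0 counts in WT, and it was thus detected in 3 of 8 libraries.

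The ADP-ribosylation machinery was represented by 3 members, of which 1 was higher and 2 were lower in HET. Parp14 (chromosome 16, 35832874 to 35871544), a mono-ADP-ribosyltransferase first known as a partner of STAT6 in interleukin 4 responses of B cells, was at 35.5, 26.9, 31.8 and 26.5 CPM in HET. In WT it was at 36.5, 43.5, 48.6 and 45.8 CPM. The HET values were all below the WT values, although HET replicate 1 and WT replicate 1 were close. This gave a log2 fold change of -0.53 (SE 0.19, fold 0.694, 95% interval -0.94 to -0.11), and the edgeR adjusted p was 0.587. It stayed between -0.61 and -0.47 when any library was left out. Parp9 and its partner ligase Dtx3l, which share a promoter region, had log2 fold changes of 0.35 and -0.22 (edgeR adjusted p = 0.773 and 0.852). Parp9 and Dtx3l overlap by 458 exonic bases on opposite strands, and without the strand setting reads there cannot be told apart.

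The last group holds nuclear body, PYHIN, TRIM and PHF11 proteins. All 4 tested members were lower in HET, none of them past the test (log2 fold changes from -0.16 to -0.016). Sp100, a core component of nuclear bodies that silence viral genomes, was at 435, 467, 509 and 416 CPM in HET and at 441, 538, 550 and 516 CPM in WT. HET replicates 2 and 3 lay above WT replicate 1, and the other WT libraries lay above all HET libraries. On the log2 scale the difference was -0.16 (95% interval -0.37 to 0.040, edgeR adjusted p = 0.773). Phf11d had 15, 22, 0 and 5 counts in HET and 0, 2, 0 and 5 counts in WT and was not tested, and 47.0% of the windows of Phf11b occur in other genes.

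In 18 tested members the highest of the 8 libraries, whatever its group, was at least 3-fold above the lowest, a spread shared by 37.2% of all genes tested, and in 9 it was under 1.5-fold above (13.8% of all genes). WT replicate 1 was the lowest library for 12 of 49 members (24.5%, against 10.5% of all genes), among them Irf7, Irf1, Isg15, Usp18, Ifit1, Ifit3, Gbp3 and Igtp. HET replicate 4 was the lowest for another 12 (24.5%, against 13.7%), among them Oas1a, Rsad2, Ly6e, Parp14 and Sp100. HET replicates 1 and 3 were each the highest for 10 members (20.4%, against 11.6% and 12.6%). Replicate 3 was highest for Usp18, Ifit1, Ifit3, Rsad2, Igtp, Irgm1 and Tgtp1, and replicate 1 for Bst2 and Oas1a. WT replicates 2 and 4 were each the highest for 9, and WT replicate 2 was the lowest for 0. High and low libraries therefore occurred in both groups.

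The mean log2 CPM of the 49 tested members was 5.49, 5.20, 5.53 and 5.16 in HET and 4.93, 5.46, 5.17 and 5.41 in WT. WT replicate 1 was lowest and HET replicate 3 highest, and the 6 other libraries were mixed. The group means were 5.35 ± 0.19 (SD, n = 4) and 5.24 ± 0.25 (SD, n = 4), a difference of 0.11 on the log2 scale that was smaller than either SD. Over all genes tested the same difference was 0.019. Without WT replicate 1 the difference was 0.0014, and leaving out any library gave 0.0014 to 0.18. This mean is above 0 while the median log2 fold change of the members, -0.016, is below it.

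**Figure D5:**
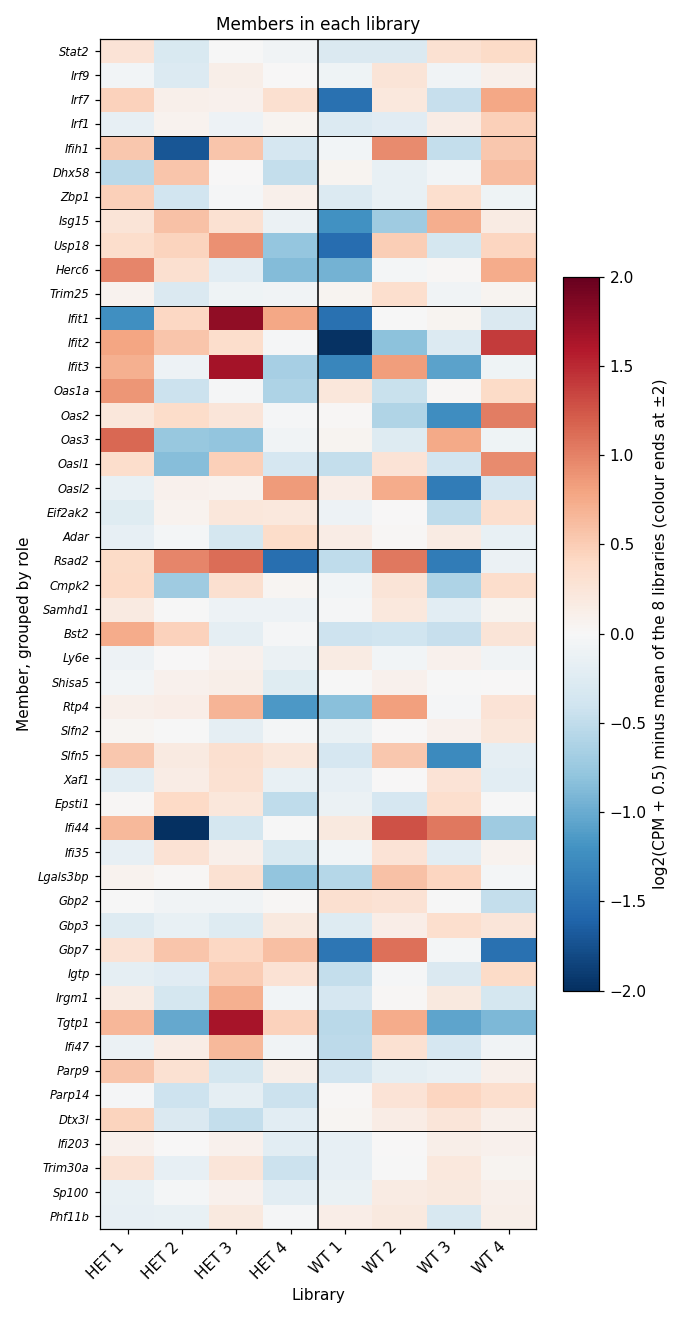
Each of the 49 tested members in each library, as log2(CPM + 0.5) minus the mean of the 8 libraries, with red above and blue below that mean, colours ending at ±2 and roles parted by lines. The column of WT replicate 1 is blue for Irf7, Isg15, Usp18, Ifit1, Ifit2 and Ifit3, and the row of Parp14 is white to blue in HET and white to red in WT.

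The surrounding pathway was examined with 118 further genes, of which 99 entered the test. Among these, 46 had a higher and 53 a lower mean in HET, and the edgeR test called 0 (lowest adjusted p = 0.217). An unadjusted p under 0.05 was found for 1 that was higher and 6 that were lower, where 3.34% and 3.88% of all genes were. Among ligands Ifnab, Ifnk and Ifng were in the table, each with at most 4 counts in any library. Transcripts of the type I receptor were present in both groups. Ifnar1 averaged 86.9 ± 16.2 CPM in HET and 100.2 ± 10.4 CPM in WT, and Ifnar2 averaged 37.6 ± 7.67 and 38.4 ± 1.79 CPM (all SD, n = 4). Their log2 fold changes were -0.20 and -0.027 (edgeR adjusted p = 0.822 and 0.982). Ifngr1, the ligand-binding chain of the interferon gamma receptor, averaged 109 ± 12.9 CPM in HET and 107 ± 14.7 CPM in WT (both SD, n = 4).

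Ifngr2, the signalling chain of that receptor, was at 83.1, 91.7, 122 and 87.8 CPM in HET and at 138, 141, 119 and 131 CPM in WT. HET replicates 1, 2 and 4 lay below every WT value, and HET replicate 3 lay above WT replicate 3. On the log2 scale the fold change was -0.46 (SE 0.14, 95% interval -0.76 to -0.17), and the edgeR adjusted p was 0.481. Jak1, a kinase bound to both receptors, was at 345, 300, 350 and 323 CPM in HET and at 411, 302, 447 and 385 CPM in WT (HET over WT, log2 fold change -0.23, 95% interval -0.48 to 0.015, edgeR adjusted p = 0.713). Tyk2, a kinase of the type I receptor, and Mx1 had log2 fold changes of 0.056 and 0.055 (edgeR adjusted p = 0.977 and 0.987). Mx1, a GTPase that blocks influenza virus in mice with an intact allele, ranged from 3.18 to 26.7 CPM in HET and from 8.83 to 27.2 CPM in WT.

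One pathway gene was called by another tool. Ifi30, which encodes the lysosomal thiol reductase GILT that unfolds antigens for presentation, was at 651, 573, 717 and 557 CPM in HET and at 813, 793, 844 and 913 CPM in WT, without overlap. HET over WT gave a log2 fold change of -0.43 (SE 0.091, edgeR adjusted p = 0.217), and DESeq2 gave an adjusted p of 0.0121. It was named after its values were seen.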

How the data were processed

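Pre-GC B cells were measured by RNA sequencing in 4 HET and 4 WT libraries. The authors made the libraries with a SMART-Seq2 protocol, aligned reads to GRCm38 (mm10 in the submitters' processing notes) with HISAT2 2.2.1 and counted them per gene with HTSeq. Annotation release, strand setting and treatment of reads with several alignments were not given in the sources used here. The deposited tables hold read counts (24259 genes) and the authors' TPM (24232 genes). SMART-Seq2 reads carry no molecular identifiers, and 6.85% to 9.90% of counts per library fell on the ribosomal RNA gene CT010467.1.

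Counts were tested in R 4.3.3 with edgeR 4.0.16 (filterByExpr, TMM, robust quasi-likelihood F-test on group alone), and p-values were adjusted by Benjamini-Hochberg over all 12744 genes tested, with a threshold of 0.05. The study used DESeq2, which was run as an alternative. The SE was derived from the fold change and the square root of F, intervals are 95%, and CPM values are TMM-scaled. No repeats were duplicates (chi-square per degree of freedom at least 13.3). Scripts were tested on simulated counts. Positions came from GENCODE M21 and promoters from RefSeq, both on GRCm38.

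The members and all lists (8 role groups, pathway genes, markers of B, T, NK, myeloid, dendritic and antibody-secreting cells) were chosen with earlier results of these data known. Genes named in the text were the members with an unadjusted p under 0.05 or without overlap between groups, the 3 with the highest and the 3 with the lowest log2 fold change at a mean of at least 5 CPM, and a panel of 22 members and 7 pathway genes taken whatever their result, and 1 further gene of the panel is not reported here. As alternatives, the test was changed to DESeq2 1.42.0 or to limma-voom with quality weights (limma 3.58.1), TMM to RLE, and the filter to none or to 50 counts on average. A block for the replicate number was added, limma-trend was run on log2(TPM + 1) for genes averaging 1 TPM or more, with a pseudocount of 0.1 and with no such filter, and each library was left out in turn. Leaving out HET replicate 1 and WT replicate 2 together was added after the data were seen.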

Additional observations from a re-analysis of the deposited data

Results flagged for a closer look

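A library was singled out where the gap to its nearest neighbour, as a share of the range of the 4 values of that group, passed Dixon's 95% critical value. This was the case in 3 of 78 groups of 4 values examined, where chance gives about 4.

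Bst2 in WT stood out through WT replicate 4, with 86.6 CPM against 52.2 to 54.5 CPM in the other 3 libraries (0.936 of the range). Siglech was at 39.0 CPM in that library and reached at most 5.93 CPM in WT replicates 1 to 3. Spib, of the same marker list, was lowest in that library, at 343 CPM. The summed B cell markers in HET stood out through replicate 1, with 26772 CPM against 17534 to 18625 CPM (0.882 of the range), where Ighm was at 15362 CPM. The summed markers of antibody-secreting cells stood out through the same library, with 2100 CPM against 294 to 550 CPM (0.858 of the range), where Jchain was at 1576 CPM.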

How the results depend on the processing

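The number of members called was 0 in every alternative, including those that left out a library. Over all genes, against 3 called, DESeq2 called 95, the fit with no filter 38, the filter at 50 counts on average 7, limma-voom 6, and each of the 3 fits on log2 TPM 0. It was 6 without WT replicate 1, 1 without HET replicate 1, 2, 3 or 4 or without WT replicate 3, and thus ran from 1 to 6 when a library was left out. Among pathway genes, DESeq2 and the fit with no filter each called 1, which was Ifi30. Members with an unadjusted p under 0.05 ran from 1 to 7, against 2 in the main fit (4.08%, against 7.22% of all genes). There was 1 without WT replicate 3 (2.04%, against 6.18% of all genes in that fit). There were 4 without HET replicate 3 (8%, against 6.12%) or WT replicate 4 (8.16%, against 6%). Without WT replicate 2 there were 6 (12.2%, against 8.33%), and without HET replicate 1 and WT replicate 2 there were 7 (14.3%, against 9.32%). The count of members higher in HET was 21 to 31 and their median log2 fold change -0.029 to 0.080 when a library was left out.

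The replicate numbers did not pair the libraries (same-number correlations across genes from -0.051 to 0.013). With the replicate number as a block 0 genes were called, and 1 member had an unadjusted p under 0.05 (2.04%, against 7.16% of all genes in that fit).

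Of the 32 named genes, 21 kept the sign of their fold change in every alternative that could be computed for them, which left out 1 filter setting for Isg15 and Tgtp1 and 2 TPM settings for Ifih1. The log2 fold change of Oas1a reversed to -0.0033 with no filter, -0.092 with the replicate block, -0.13 with limma-voom, -0.12, -0.15 and -0.12 on the TPM settings and -0.57 without HET replicate 1 and WT replicate 2. For Mx1 it was -0.036 with limma-voom, -0.085, -0.18 and -0.085 on TPM and -0.13 without those 2 libraries, and for Ifngr1 -0.019, -0.020 and -0.019 on TPM. Stat2 kept its sign without those 2 libraries, at -0.28. When a library was left out, the values ran from -0.42 to 0.18 for Oas1a, -0.25 to 0.41 for Mx1, -0.18 to 0.057 for Stat2, -0.089 to 0.18 for Tyk2, -0.085 to 0.053 for Samhd1, -0.23 to 0.020 for Adar, -0.16 to 0.069 for Ifnar2, -0.027 to 0.12 for Ifngr1, -0.020 to 0.67 for Irf7, -0.0094 to 0.27 for Eif2ak2 and -0.19 to 0.080 for Irf1. The cause of these changes was not tested. Leaving out a library also moved Oasl2 (0.034 to 0.70) and Igtp (0.048 to 0.39) without a change of sign.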

Other observations

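Among the pathway genes with an unadjusted p under 0.05 that are not described above, all named after their values were seen, Nmi, a partner of STAT proteins and of Ifi35, averaged 61.3 ± 8.56 CPM in HET and 44.5 ± 7.31 CPM in WT, without overlap (both SD, n = 4, and a log2 fold change of 0.46, edgeR adjusted p = 0.602). Irf2, which competes with Irf1 for its sites, averaged 98.1 ± 10.5 CPM in HET and 129 ± 18.7 CPM in WT (both SD, n = 4, and a log2 fold change of -0.40, edgeR adjusted p = 0.571). Ube2l6, the conjugating enzyme for ISG15, averaged 17.1 ± 6.78 CPM in HET and 28.0 ± 5.62 CPM in WT (both SD, n = 4, and a log2 fold change of -0.70, edgeR adjusted p = 0.629), a sign opposite to that of Isg15 and Usp18. Parp11 and Trim12a had log2 fold changes of -0.82 and -0.33 (edgeR adjusted p = 0.602 and 0.621). None of these passed the adjusted test.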
